A study of Mus musculus with 20 samples.

Results

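Mouse gene symbols made of Gm and a number are provisional names, given to gene models found by annotation pipelines before a function was assigned. In whole atria of adult female mice, 143 such genes reached a mean of 50 or more normalized counts across all 10 libraries of the right atrium (RA). They were chosen by that symbol and that mean, from 7539 Gm genes in the RA table, of which 4608 had a value above 0, and from 33446 RA genes in all. Mutant mice were heterozygous for the G125R missense allele of Tbx5 (Tbx5G125R/+), made with CRISPR-Cas9 at the endogenous gene and so carried in every cell, and controls were mice without it. Mice were 8 to 12 weeks old, and each of 4 groups had 5 libraries: mutant RA, control RA, mutant left atrium (LA) and control LA. The paper on these data gives 5 female animals per genotype for the right atria, while the labels name no animals. The p-values measure the spread between libraries, and whether RA and LA libraries came from the same mice is not given.

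Such a symbol says nothing about the kind of gene behind it. Some Gm models encode proteins and were later renamed. Others are long noncoding RNAs (lncRNAs), longer transcripts without a long reading frame, which often start beside or inside a coding gene on the opposite strand. Others again are processed pseudogenes, copies of an mRNA that were written back into the genome and usually lack introns, so that sequencing reads from the parent mRNA can be placed on them. Tbx5 is a T-box transcription factor that sets the atrial working muscle and conduction system programs, and noncoding transcripts near its target genes are part of what it controls.

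Against the GENCODE M21 annotation (build GRCm38, the same as mm10), 54 of the 143 members were lncRNAs, 48 were protein coding, 32 were pseudogenes and 9 had no entry. Of the 134 with an entry, 40 carried another symbol there, 31 of them coding genes. These included Gm1078 (Sbk3, an SH3-domain binding kinase), Gm1574 (Stmnd1, a stathmin domain protein), Gm129 (Ciart, a repressor in the circadian clock), Gm14446 (Ifit1bl1, of the interferon-induced Ifit family), Gm98 (Myrf, a membrane-bound transcription factor first known from myelinating glia), Gm15800 (Hectd4, of the HECT ubiquitin ligase family) and Gm505 (Sprtn, a protease that cuts proteins crosslinked to DNA). By position, 12 members overlapped a coding gene on the same strand. Of the rest, 28 began within 5 kb of the start of a coding gene on the opposite strand, whether or not they overlapped one. Without such a start nearby, 26 overlapped a coding gene on the opposite strand only and 68 overlapped none. The kit does not mark strand, so reads of overlapping genes on opposite strands cannot be told apart. A match of at least 90% identity over at least 50% of a transcript was found in another gene for 44 members, namely 31 of the 32 pseudogenes, 13 coding genes and no lncRNA.

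Reads recovered from the tables came to 17.5 to 26.8 M reads per RA library and 19.1 to 24.8 M reads per LA library. The members took 0.234% to 0.369% of the reads of an RA library and 0.127% to 0.278% of those of an LA library. Mitochondrial ribosomal RNA took 7.28% to 15.7% of RA reads and 19.5% to 46.7% of LA reads. Tbx5 itself averaged 6153 normalized counts in mutant RA and 6113 in control RA, with an adjusted p of 0.937, and a missense allele is counted like the normal one. Of 9 atrial muscle markers all were measured, with a summed level of 1134580 to 1516080 in mutant RA and 1256210 to 1627790 in control RA. Some marker genes moved with genotype in the RA: the ventricular markers Myl3 and Myl2 were lower in mutants by a log2 fold change of -1.53 and -2.06, Fhl2 of the same list was higher by 0.73, and Trac, of the lymphocyte list, was higher by 2.26. Also called in the RA were 1 atrial muscle marker higher and 1 lower of 9, 1 endothelial marker higher of 6 and 2 smooth muscle and pericyte markers lower of 7. In the LA, Myl3 was lower by a log2 fold change of -3.38 (adjusted p = 0.0136, limma), at 0 to 3.96 in mutants. Trac was higher there by 2.18 (adjusted p = 0.0106, limma). Of 5 sinoatrial node markers tested in the LA, 1 was called higher and 2 lower. The summed lymphocyte list ran from 150.1 to 199.9 in mutant RA and from 49.4 to 78.0 in control RA, with Trac at 124.8 to 164 in mutant RA and 17.7 to 44.3 in control RA and no list member at 0 in every library. Of the other lymphocyte markers, Cd3e, Cd79a, Cd79b and Ms4a1 averaged lower in mutant RA than in control RA and Cd3g slightly higher, all at means under 14, so the higher sum lies in Trac. The part of cell composition in the changes below was not tested, and in whole tissue fewer cells of a type and less RNA per cell cannot be told apart.

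Promoter windows from RefSeq (GRCm38.p6, 250 bases before to 50 bases after an annotated start) were held for 72 members. They are shown for 3 of the members that differed most clearly between genotypes and for Ciart, whose level followed a set of libraries and not genotype. The letters AGGTGT stand for the core that T-box factors bind. GATA factors bind AGATAA, and clock and other basic helix-loop-helix factors bind CACGTG, the E-box. The letters TATAAA stand for the box found ahead of many starts. All were searched on both strands, matches are in capitals, and no motif overlaps another in the windows shown. Gm13715 had 5 annotated starts, and the window printed is the one around its GENCODE start, on the plus strand at chr2:85233430-85233729. Gm12295 is on the minus strand at chr11:65287784-65288083, Sbk3 on the minus strand at chr7:4970912-4971211 and Ciart on the minus strand at chr3:95882179-95882478.
Gm13715: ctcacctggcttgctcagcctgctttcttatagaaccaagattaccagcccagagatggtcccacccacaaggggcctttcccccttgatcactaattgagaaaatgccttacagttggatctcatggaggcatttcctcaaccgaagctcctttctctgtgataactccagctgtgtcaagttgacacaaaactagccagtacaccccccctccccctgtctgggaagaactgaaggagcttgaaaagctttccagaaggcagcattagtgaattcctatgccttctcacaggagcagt
Gm12295: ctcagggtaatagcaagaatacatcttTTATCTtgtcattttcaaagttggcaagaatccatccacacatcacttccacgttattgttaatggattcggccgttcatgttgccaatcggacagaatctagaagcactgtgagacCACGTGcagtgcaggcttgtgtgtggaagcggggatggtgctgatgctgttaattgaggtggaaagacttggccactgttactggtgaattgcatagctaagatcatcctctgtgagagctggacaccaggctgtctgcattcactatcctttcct
Gm1078 (Sbk3): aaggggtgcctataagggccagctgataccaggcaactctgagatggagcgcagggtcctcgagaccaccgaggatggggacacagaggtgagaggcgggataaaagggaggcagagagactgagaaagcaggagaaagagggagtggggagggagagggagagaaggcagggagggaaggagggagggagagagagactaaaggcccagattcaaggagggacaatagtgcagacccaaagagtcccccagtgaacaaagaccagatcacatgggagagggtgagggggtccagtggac
Gm129 (Ciart): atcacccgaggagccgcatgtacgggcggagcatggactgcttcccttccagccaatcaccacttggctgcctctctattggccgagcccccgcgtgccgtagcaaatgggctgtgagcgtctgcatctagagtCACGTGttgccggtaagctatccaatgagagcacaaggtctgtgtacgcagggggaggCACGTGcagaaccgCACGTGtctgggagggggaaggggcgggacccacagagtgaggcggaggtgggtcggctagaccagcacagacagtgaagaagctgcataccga
The T-box letters occurred in none of the 15 windows of the 10 called members with a window, against 13.7% of all 32851 windows and 8 of the 92 member windows. In the 4 windows shown, Gm12295 held an E-box 106 bases before its start and the GATA letters, on the other strand, 223 bases before it. Ciart held the E-box 3 times, 116, 58 and 44 bases before its start, and the windows shown for Gm13715 and Sbk3 held none of these letters. Among the Gm13715 windows not shown, the one at chr2:85213193-85213492 held the GATA letters 243 bases before its start. The E-box occurred in 7.15% of all windows, the GATA letters in 11.2% and TATAAA in 13.6%. A window without a match says only that these letters are not in it.

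The question for each member was whether its level differed between Tbx5G125R/+ and control atria. Levels are normalized counts, reads divided by a size factor of the library, and changes are log2 fold changes, mutant minus control, of the normalized count plus 1, fitted with limma over all genes of a mean of at least 10 and called at a Benjamini-Hochberg adjusted p under 0.05. In the RA 15 of the 143 members were called (10.5%), against 6.23% of all 14288 genes tested and 6.7% of the 11772 genes with a mean of at least 50. Higher in mutants were 8 members, against 3.09% of all genes and 3.17% of those with a mean of at least 50. Lower were 7, against 3.14% of all genes and 3.53% of those with a mean of at least 50. These shares are a description: members below 50 in controls but not in mutants could enter only through the mutants, which was so for 6 members, among them the called Gm14267, Gm11469 and Gm13715. The median change over the members was -0.02 and over all tested genes -0.01. Of the other provisional symbols, those ending in Rik, 21 were higher and 21 lower among 602 with a mean of at least 50. Genotypes did not overlap for 12 members (8.39%), against 7.36% of all genes. Mutants lay wholly above controls for 5 of them, against 3.53% of all genes, and wholly below for 7, against 3.83%. The count of higher members was 4 without mutant RA 2, mutant RA 5, control RA 4 or control RA 5 and 5 without mutant RA 3, mutant RA 4 or control RA 3. The count of lower members was 4 without mutant RA 4, control RA 3 or control RA 4.

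In the LA, 128 members had a mean of at least 10 and 5 were called (3.91%), against 1.2% of all 13192 genes tested and 1.24% of the 11321 with an RA mean of at least 50. These were 4 higher, against 0.758% of all genes and 0.768% of those with an RA mean of at least 50, and 1 lower, against 0.44% and 0.468%. These LA shares too are a description, since Gm14267, Gm11469 and Gm13715, which were 3 of the 4, are members only through their mutant RA values. Gm14267, Gm11469, Gm13715 and Gm12295 were called in both atria, each in the same direction, and Gm10710 was called in the LA alone. Genotypes did not overlap for 10 LA members (7.81%), against 3.47% of all genes, with mutants above for 9 (2.02% of all genes) and below for 1 (1.46%). Leaving out single LA libraries moved the count of higher members to 1 (without mutant LA 1), 2 (without mutant LA 5, control LA 2 or control LA 3) or 7 (without mutant LA 4). The count of lower members was 3 without mutant LA 4, 0 without mutant LA 1, 2, 3 or 5 or control LA 2, 3, 4 or 5, and 1 without control LA 1. In the test of the difference between atria, the LA change minus the RA change, no member was called by limma, against 8 of 12537 genes (0.0638%), of which 0.0239% had the LA change above the RA change and 0.0399% below it, and 19 of 128 members had an unadjusted p under 0.05, against 1020 of 12537 genes. With edgeR the count was also 0, and with DESeq2 it was 1, Gm5514, a pseudogene whose change was 0.93 in the LA and -0.17 in the RA.

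**Figure D1:**
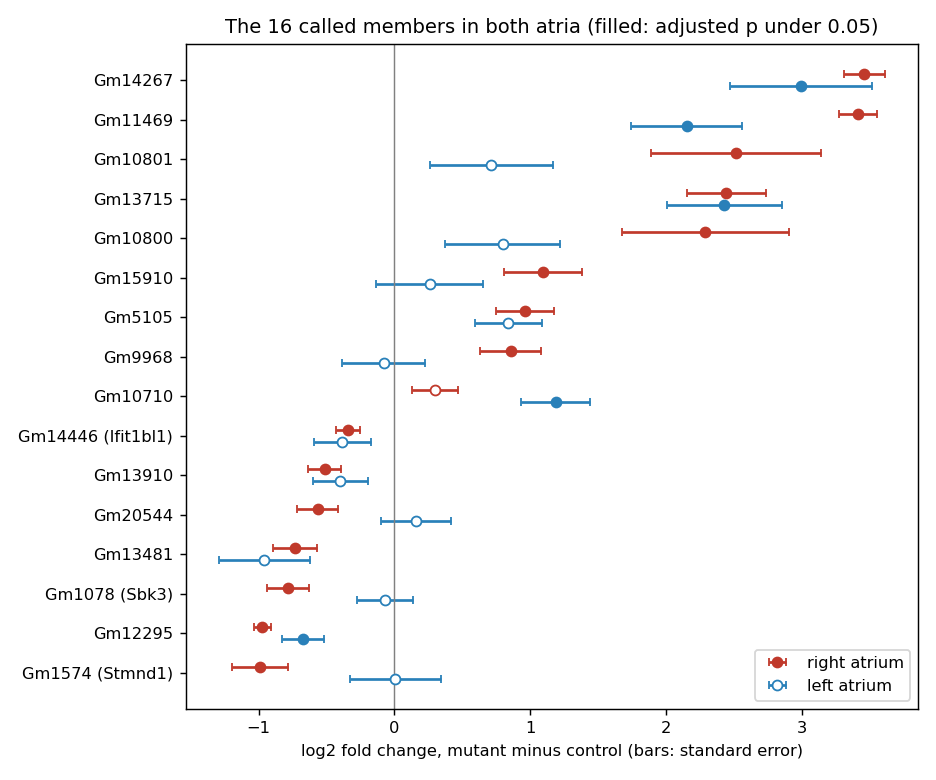
Log2 fold change, mutant minus control, with its standard error for the 16 members called in at least 1 atrium, in the right atrium (red) and left atrium (blue), with filled points for an adjusted p under 0.05. Gm14267, Gm11469 and Gm13715 lie above 2 in both atria, and Gm12295 lies below 0 in both.

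The largest RA changes among the called members were those of Gm14267 and Gm11469, 2 symbols that RefSeq gives for a single gene. Whether both count the same locus was not tested. Gm14267 (ENSMUSG00000085682) is annotated as a transcribed processed pseudogene of up to 8 exons, at chr2:166500036-166522373 on the minus strand with no coding gene over it, and Gm11469 (ENSMUSG00000081123), absent from M21, is listed by RefSeq as a synonym of Gm14267. Counted as 1 locus, the members called higher in the RA are 7 and in the LA 3. Gm14267 had 213, 232, 221, 265 and 217 normalized counts in the mutant RA libraries, against 21.9, 13.7, 24, 20.02 and 21.2 in the control RA libraries. Every mutant RA library was thus far above every control, and libraries of a genotype lay close together. The means were 229.5 ± 20.9 in mutant RA and 20.2 ± 3.88 in control RA (SD, n = 5 each), a ratio of 11.4, and the log2 fold change was 3.46 ± 0.15 (SE, adjusted p = 3.01e-08, limma). In the LA, Gm14267 had 43.1, 13.7, 11.9, 18.03 and 26.9 in mutant libraries, against 1.72, 3.42, 0.946, 0 and 4.9 in control libraries. The genotypes again did not overlap, at levels of 0 to 5 recovered reads in controls, and the change was 2.996 ± 0.524 (adjusted p = 0.0101, limma).

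Gm11469 gave 199, 210, 185, 258 and 205 normalized counts in mutant RA libraries, against 19.1, 15.6, 18.9, 17.9 and 23.1 in control RA libraries, a change of 3.41 ± 0.14 (adjusted p = 1.59e-08, limma). The ratio of Gm14267 to Gm11469 was 1.03 to 1.20 in mutant RA and 0.882 to 1.27 in control RA. In the LA, Gm11469 had 61.5, 32.9, 34.8, 30.04 and 71.3 in mutant libraries, against 15.5, 4.56, 7.57, 5.06 and 19.6 in control libraries, without overlap. Its LA change was 2.15 ± 0.41 (adjusted p = 0.0174, limma), and the call was lost without mutant LA 1, mutant LA 5, control LA 2 or control LA 3, where the adjusted p was 0.0525 to 0.058. There the ratio of Gm14267 to Gm11469 was 0.343 to 0.701 in mutants and 0 to 0.75 in controls. Part of the Gm14267 transcript matches 23 other genes at 90% identity or more. The closest was Gm17494 (93.47%), and the one of largest RA mean was Ppia (cyclophilin A, a prolyl isomerase, 93.45%). Reads of Ppia may be assigned to its copies, so its listed value may not give the level of the Ppia mRNA. Ppia averaged 180 ± 32.2 in mutant RA and 143 ± 18.6 in control RA, with a change of 0.32 (adjusted p = 0.189, limma). The nearest coding gene on the side of higher coordinates, Prex1 (an exchange factor for Rac), lay 43969 bases away with a change of -0.12 (adjusted p = 0.552, limma), and Sulf2 (an endosulfatase of heparan sulfate), 344373 bases away on the other side, rose by 0.42 in the RA (adjusted p = 0.0364, limma).

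Gm13715 (ENSMUSG00000085025), a long intergenic noncoding RNA of up to 3 exons at chr2:85233675-85243678 on the plus strand, was also higher in both atria. It had 88.3, 113, 79.7, 72.5 and 77.98 normalized counts in mutant RA libraries, against 19.1, 8.24, 8.84, 20.02 and 24.9 in control RA libraries. In the LA it had 113, 50.3, 57.8, 31.2 and 114 in mutant libraries, against 23.2, 5.7, 6.62, 11.8 and 16.7 in control libraries. No mutant value reached down to a control value in either atrium, and the spread among mutant LA libraries was wide. The changes were 2.45 ± 0.29 in the RA (adjusted p = 1.83e-04, limma) and 2.43 ± 0.43 in the LA (adjusted p = 0.0101, limma), and their difference was -0.02 ± 0.55. With an RA mean of 51.3 it lay just inside the limit of 50, with Gm10010 (51.1), while Gm13139 (49.1) and Gm14097 (48.5) lay just outside. Its flanking coding genes, Lrrc55 (an auxiliary subunit of BK potassium channels) and the olfactory receptor Olfr987, had RA means of 6.36 and 0.317, too low to be tested there.

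Gm12295 (ENSMUSG00000085162) was the member lower in both atria. It is a long intergenic noncoding RNA of up to 5 exons at chr11:65277654-65365798 on the minus strand. It lies upstream of Myocd, the coactivator of serum response factor that drives smooth and cardiac muscle genes, on the same strand. The end of Gm12295, not its start, lies 7665 bases from the start of Myocd. The RefSeq start printed above lies inside the longer GENCODE span. Mutant RA libraries had 554, 661, 566, 566 and 574 normalized counts, against 1128, 1115, 1163, 1194 and 1124 in control RA libraries. Mutant RA 2 was the highest mutant, and every mutant was far below every control. The means were 584 ± 43.5 in mutant RA and 1145 ± 32.9 in control RA (SD, n = 5 each), with a change of -0.97 ± 0.06 (adjusted p = 1.02e-06, limma). In the LA the values were 619, 565, 532, 659 and 522 in mutants, against 780, 822, 862, 932 and 1280 in controls, again without overlap. The LA change was -0.67 ± 0.15 (adjusted p = 0.0499, limma), and leaving out any library other than mutant LA 4 or control LA 1 gave an adjusted p of 0.0727 to 0.141. Myocd averaged 2010 in mutant RA and 2364 in control RA, a change of -0.23 ± 0.09 (adjusted p = 0.138, limma), and -0.45 in the LA (adjusted p = 0.276, limma).

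**Figure D2:**
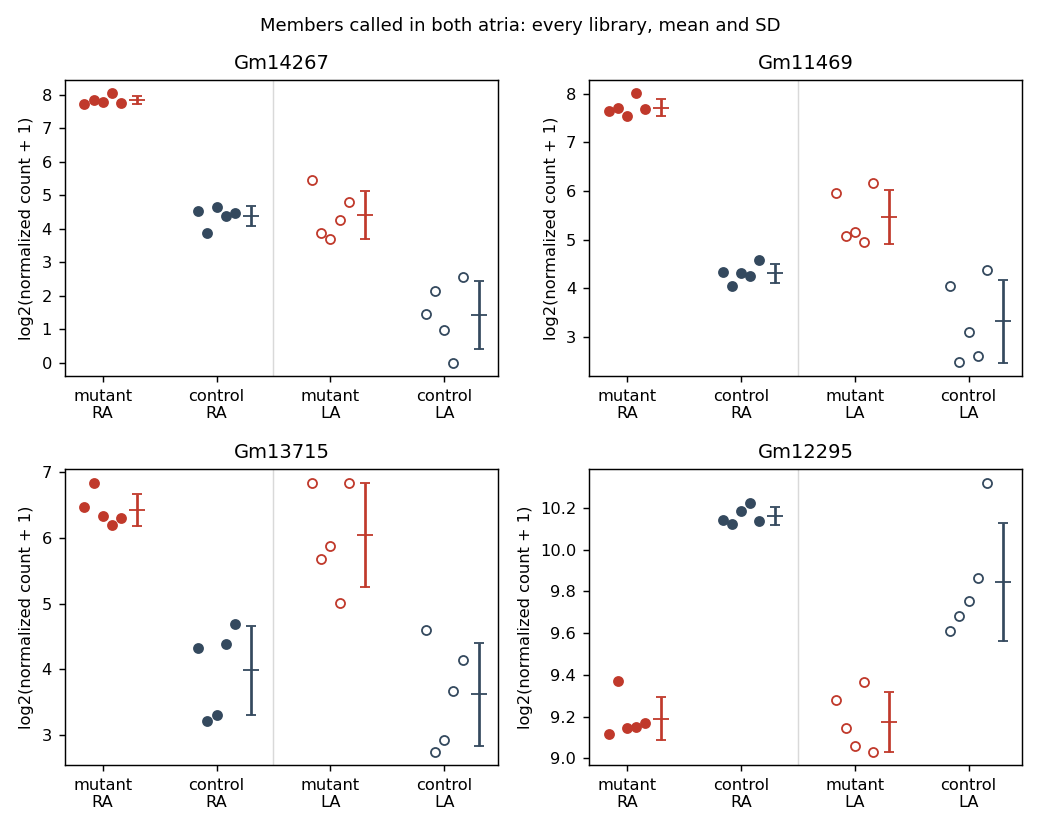
Log2 of the normalized count plus 1 in every library for the 4 members called in both atria, with mutant groups left of control groups in each atrium and the mean and SD beside the points. Axes do not start at 0 and differ between panels. Mutants lie above controls for Gm14267, Gm11469 and Gm13715 and below them for Gm12295, without overlap.

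Among coding members, Gm1078, now Sbk3 (chr7:4965260-4971168, minus strand), had the largest RA count of all 143, a mean of 14339. Mutant RA libraries had 7804, 12498, 11109, 9183 and 12002 normalized counts, against 17408, 15250, 14300, 20374 and 23463 in control RA libraries, without overlap. The change was -0.79 ± 0.16 (adjusted p = 0.00858, limma). In the LA, Sbk3 averaged 8742 ± 2300 in mutants and 9003 ± 1666 in controls, a change of -0.07 ± 0.20 (adjusted p = 0.859, limma), and the difference between atria was 0.72 ± 0.26 (adjusted p = 0.56, limma), which did not pass. Sbk2, a related kinase gene 854 bases away, averaged 7884 in mutant RA and 8486 in control RA, a change of -0.10 (adjusted p = 0.607, limma), while Zfp579, a zinc finger gene on the other side, fell by 0.33 (adjusted p = 0.031, limma).

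Gm1574, now Stmnd1, had 52.3, 69.5, 72.6, 43.7 and 93.04 normalized counts in mutant RA libraries, against 100, 157, 140, 103 and 153 in control RA libraries. Its groups did not overlap and its change was -0.99 ± 0.21 (adjusted p = 0.012, limma; 0.106 with all 4 groups in a single model). In the LA it averaged 61.4 ± 12.1 in mutants and 67.6 ± 33.4 in controls, a change of 0.01 ± 0.33 (adjusted p = 0.99, limma). Neither flanking gene, Atxn1 or Rbm24 (an RNA-binding splicing factor of the heart), was called. Gm14446, now Ifit1bl1, had 268 to 329 in mutant RA, against 338 to 436 in control RA, and a change of -0.34 ± 0.09 (adjusted p = 0.0339, limma), the smallest among the called members. Its call was lost without mutant RA 1, 2, 3 or 4 or control RA 2, 3, 4 or 5 (adjusted p = 0.0565 to 0.0815). Its neighbours Ifit3 and Ifit3b, of the same interferon-induced family, had changes of -0.16 (adjusted p = 0.724) and -0.40 (adjusted p = 0.332), both by limma.

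Gm13481, a lncRNA on chromosome 2 with no coding gene over it, had 51.1, 77.3, 78.8, 93.5 and 67.3 normalized counts in mutant RA libraries, against 141, 140, 111, 109 and 107 in control RA libraries. Every mutant library was below every control, and the change was -0.73 ± 0.16 (adjusted p = 0.017, limma; 0.325 with all 4 groups in a single model). In the LA mutants had 26.9 to 120 and controls 63.6 to 155, with overlap, and the change was -0.96 ± 0.34 (adjusted p = 0.212, limma). Its flanking coding genes lay over 300 kb away and neither Zeb2 nor Acvr2a was called. Gm20544, a lncRNA on chromosome 18 that starts 441 bases from Smad7 (an inhibitor of TGF-beta signalling) on the opposite strand, had 84.2 to 129 in mutant RA, against 131 to 200 in control RA. It changed by -0.56 ± 0.15 (adjusted p = 0.0425, limma), with Smad7 at -0.18 (adjusted p = 0.279, limma). That call was lost when any library other than mutant RA 2 or control RA 5 was left out (adjusted p = 0.059 to 0.104).

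Of the 32 pseudogene members, besides Gm14267, only Gm13910 was called in the RA. It is a single-exon copy of Hadhb (a subunit of the mitochondrial trifunctional protein, which runs the last steps of long-chain fatty acid oxidation), identical to it at 99.79% of bases over its whole length. It had 91.8, 142, 118, 96.1 and 110 normalized counts in mutant RA libraries, against 162, 145, 165, 159 and 159 in control RA libraries. The highest mutant and the lowest control were close, and the change was -0.51 ± 0.12 (adjusted p = 0.0252, limma). Hadhb averaged 1981 in mutant RA and 2500 in control RA, and it fell as well, by 0.33 (adjusted p = 0.0127, limma). Reads of a gene and so close a copy may be assigned to either, so Gm13910 has no reading apart from Hadhb. Its call was lost without mutant RA 4 or 5 or control RA 3 or 4 (adjusted p = 0.0558 to 0.0657). The parents of the other pseudogenes included Eef1a1, Hsp90ab1, Ldhb, Rps24, Atp5o, Prdx2, Glo1 and Fabp5, and none of these 8 was called. Among the most abundant matching genes of the other pseudogenes, only Peli2 was called in the RA. It matches Gm13394 at 92.26% identity and changed by -0.49 (adjusted p = 0.0021, limma). Gm13394, a copy of Gapdh at 99.9% identity, averaged 1380 in mutant RA and 1442 in control RA, while Gapdh itself, a glycolytic enzyme abundant in muscle, was listed at 105 and 96.6. In the LA table Gm13394 averaged 32.04 in mutants and 30.4 in controls.

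Members higher in mutant RA also included Gm5105, a coding model that overlaps 1110002E22Rik on the opposite strand. It had 62.7, 134, 133, 108 and 97.5 normalized counts in mutant RA libraries, against 74.3, 53.1, 49.3, 48.5 and 42.4 in control RA libraries, with overlap from mutant RA 1 alone. The change was 0.96 ± 0.21 (adjusted p = 0.017, limma; 0.0518 without mutant RA 3), and the LA change was 0.84 ± 0.25 (adjusted p = 0.149, limma). The overlapping 1110002E22Rik had a mean of 3354 and a change of 0.01 (adjusted p = 0.956, limma).

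The antisense lncRNAs Gm15910 and Gm9968 lie within coding genes. Gm15910, inside Msrb3 (a methionine sulfoxide reductase), had 149, 233, 187, 132 and 155 in mutant RA libraries, against 155, 103, 66.9, 62.2 and 43.3 in control RA libraries, and control RA 1 overlapped the mutants. It changed by 1.09 ± 0.29 (adjusted p = 0.0393, limma), with Msrb3 at -0.21 (adjusted p = 0.0879, limma). Gm9968, inside Zbtb20 (a zinc finger repressor), had 114, 141, 92.9, 85.6 and 99.2 in mutant RA libraries, against 79.1, 74.2, 66.9, 45.3 and 35.05 in control RA libraries, without overlap. It changed by 0.86 ± 0.22 (adjusted p = 0.0396, limma), with Zbtb20 at -0.02 (adjusted p = 0.964, limma). Both calls were lost without any one mutant RA library or without control RA 3, 4 or 5, with an adjusted p up to 0.101 for Gm15910 and 0.102 for Gm9968. In the LA their changes were 0.26 and -0.08, neither called. In both members control RA 5 had the lowest value of the 10.

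Gm10710, a single-exon lncRNA on chromosome 3 that overlaps Dchs2 on the opposite strand, was called only in the LA. It had 33.9, 31.1, 43.8, 33.6 and 30.9 in mutant LA libraries, against 20.6, 15.95, 12.3, 13.48 and 11.8 in control LA libraries, without overlap, and the change was 1.19 ± 0.25 (adjusted p = 0.0342, limma). In the RA it had 53.4 to 80.4 in mutants and 35.8 to 58.1 in controls, a change of 0.30 ± 0.17 (adjusted p = 0.322, limma). The difference between atria was 0.89 ± 0.28 (adjusted p = 0.56, limma) and did not pass. The LA call held only when mutant LA 4 or control LA 1 was the library left out, with an adjusted p of 0.0619 to 0.117 for the other 8 libraries.

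**Figure D3:**
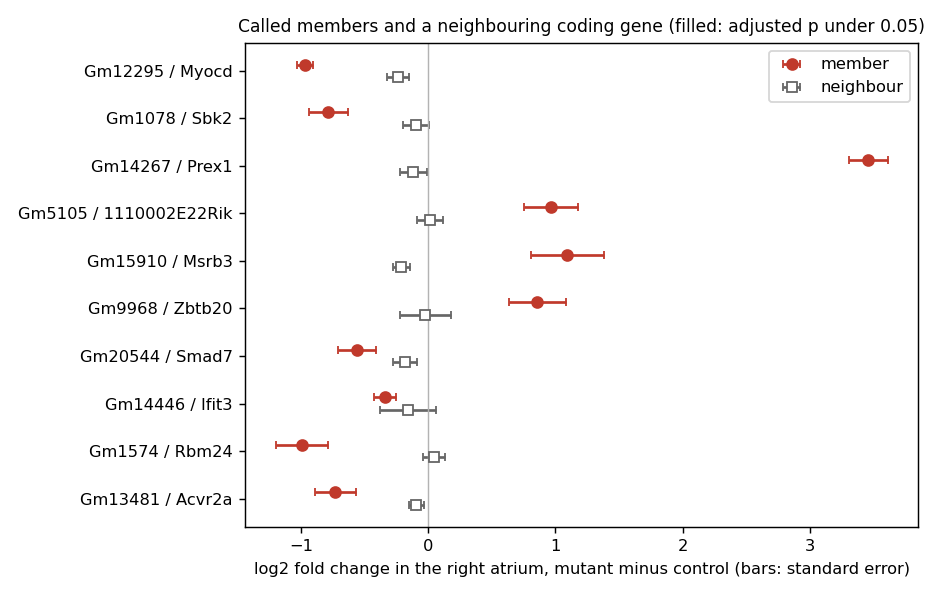
Log2 fold change in the right atrium, mutant minus control, with its standard error for 10 called members (red circles) and the coding gene that overlaps each or lies nearest to it (grey squares, open where the adjusted p is 0.05 or more). The members were chosen because they were called, so their distance from 0 was set by that choice. Each of the 10 neighbours shown lies within 0.24 of 0, and the called neighbours Sulf2, Kcna4 and Zfp579 are not shown.

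Over the 16 called members, 26 coding neighbours that are no members themselves could be tested in the RA. Of these 2 were called higher (Sulf2, flanking Gm14267, and Kcna4, flanking Gm13910) and 1 lower (Zfp579, flanking Gm1078), a share of 11.5% against 6.23% of all genes. Kcna4, a voltage-gated potassium channel that rose by 0.57, lies 1650304 bases from Gm13910, farther than Mettl15 on the other side at 142064 bases, which was not called. In the LA 0 of 27 tested neighbours were called, against 1.2% of all genes.

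Some of the largest counts varied within genotypes more than between them. Gm15564, an antisense lncRNA on chromosome 16 and the member with the largest count per kb of transcript, had 19820, 1020, 31178, 1349 and 6320 normalized counts in mutant RA libraries, against 301, 151, 6352, 2341 and 16074 in control RA libraries. Its highest library was 30.6 times its lowest among mutants and 106 times among controls. The change of 1.79 ± 1.28 was not called (adjusted p = 0.449, limma). In the LA it ran from 105 to 4966 in mutants and from 63.6 to 2949 in controls.

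Gm10800 and Gm10801 lie 2464 bases apart on chromosome 2 on opposite strands, and their transcripts match at 90.57% identity. Gm10800 matched 12 other genes and Gm10801 matched 9, each count including the other. Reads may thus be split between them and further genes. Both are among the 8 members called higher in the RA and the 3 annotated coding members called higher, so these calls are not separate. Whether their reads come from coding transcripts was not tested. Gm10800 had 2451, 20138, 3256, 3528 and 17991 normalized counts in mutant RA libraries, against 652, 3430, 1367, 1397 and 846 in control RA libraries. Mutant RA 2 and 5 were over 5 times the next mutant, and control RA 2 lay among the other mutants. Gm10801 moved with it in every library, at a ratio of Gm10800 to Gm10801 of 4.29 to 4.85 in mutant RA and 5.14 to 5.61 in control RA. The changes were 2.29 ± 0.61 for Gm10800 (adjusted p = 0.0433, limma) and 2.52 ± 0.63 for Gm10801 (adjusted p = 0.0311, limma). Both calls were lost without mutant RA 2, mutant RA 5 or control RA 1, 3, 4 or 5, and that of Gm10800 also without mutant RA 4, at an adjusted p up to 0.0995 and 0.0717. Both were also lost with robust empirical Bayes (adjusted p = 0.117 for Gm10800 and 0.0944 for Gm10801), and Gm10800 with the mitochondrial RNA share as covariate (adjusted p = 0.0527), all by limma. In the LA Gm10800 had 2769 to 6056 in mutants and 696 to 5438 in controls, with a change of 0.80 that was not called (adjusted p = 0.339, limma).

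**Figure D4:**
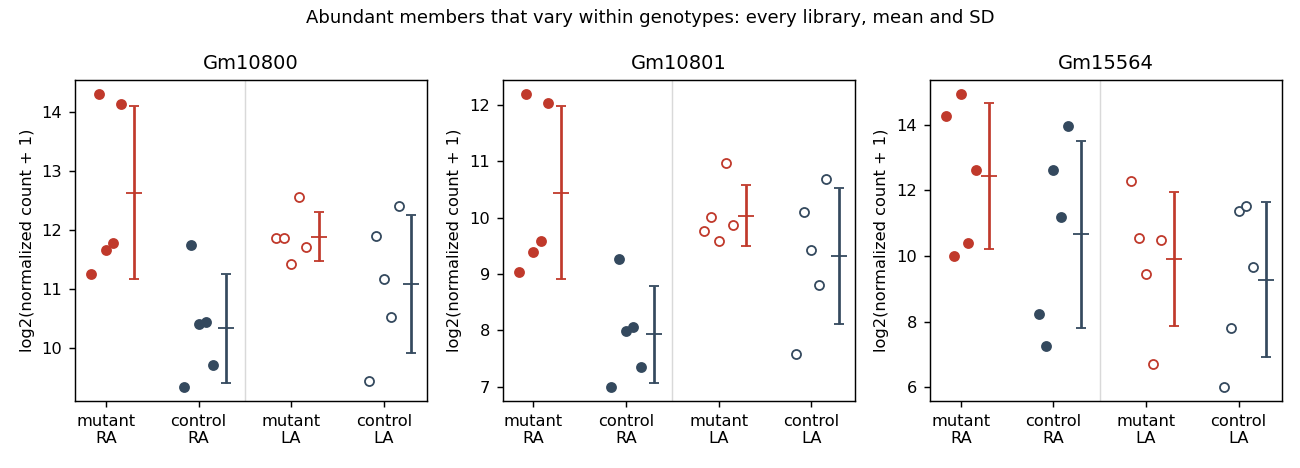
Log2 of the normalized count plus 1 in every library for Gm10800, Gm10801 and Gm15564, with mutant groups left of control groups in each atrium and the mean and SD beside the points. Axes do not start at 0. Mutant RA 2 and 5 stand above the other mutant RA libraries for Gm10800 and Gm10801, and Gm15564 spreads widely in every group.

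Ciart (Gm129) followed libraries and not genotype. It had 139, 174, 139, 178 and 54.1 normalized counts in mutant RA libraries, against 173, 155, 181, 50.6 and 17.5 in control RA libraries. The same 3 library numbers, mutant 5 and control 4 and 5, were the lowest in the LA, where mutants had 45.3, 18.3, 23.9, 32.4 and 7.13 and controls 17.2, 29.6, 29.3, 11.8 and 4.9 Of 8 clock genes chosen after these values were seen, Arntl and Clock were highest and Dbp, Per2, Per3 and Nr1d2 lowest in these 3 RA libraries, while Npas2 and Nr1d1 in them overlapped the other libraries. Arntl (BMAL1, which binds E-boxes with CLOCK) had 863 in mutant RA 5 and 919 and 1109 in control RA 4 and 5, against 179 to 418 in the other RA libraries. Dbp, an output gene of the clock, had 488 in mutant RA 5 and 491 and 357 in control RA 4 and 5, against 940 to 1740 in the others. With libraries of both kinds in both genotypes, the change of Ciart was 0.57 ± 0.58 in the RA (adjusted p = 0.602, limma) and 0.45 ± 0.51 in the LA (adjusted p = 0.625, limma).

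Gm13833 and Gm17428 complete the 5 members with the widest spread within an RA genotype. Among control RA libraries Gm13833 ran from 10.1 to 124 and Gm17428 from 13.8 to 138. In both, control RA 5 was the lowest library and control RA 1 the highest of the controls. Mutant RA libraries ran from 49.96 to 97.5 for Gm13833 and from 68.6 to 159 for Gm17428.

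The remaining members of large RA count did not differ between genotypes by the test. Gm1614 (Prob1, a proline-rich basic protein) averaged 3855 ± 331 in mutant RA and 4512 ± 783 in control RA (adjusted p = 0.27, limma). Gm15800 (Hectd4) averaged 2102 ± 282 in mutant RA and 1856 ± 163 in control RA (adjusted p = 0.316, limma). Gm9581, which RefSeq lists as a synonym of Crybg3, averaged 2005 ± 193 in mutant RA and 1675 ± 130 in control RA (adjusted p = 0.0732, limma). Gm10435, an antisense lncRNA, averaged 1854 ± 364 in mutant RA and 1343 ± 191 in control RA (adjusted p = 0.0765, limma), and its LA change was 0.95 (adjusted p = 0.13, limma). Gm608 (Usf3, of the upstream stimulatory factor family) averaged 1538 ± 218 in mutant RA and 1403 ± 178 in control RA (adjusted p = 0.545, limma).

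Grouped by kind, 3 lncRNA members were called higher and 3 lower in the RA of 54, 3 coding members higher and 3 lower of 48, and 1 pseudogene higher and 1 lower of 32. The coding members called higher included Gm10800 and Gm10801, which match each other and moved together. The median RA change was 0.24 over lncRNA members, -0.10 over coding members and -0.16 over pseudogenes, against -0.01 over all tested genes. Against these class counts, 6.23% of all tested genes and 6.7% of genes with a mean of at least 50 were called in either direction. Control RA 5 had the lowest value of the 10 for 25 of the 54 lncRNA members (46.3%), against 15.2% of all genes with a mean of at least 50, and the highest for 17 of the 32 pseudogenes (53.1%), against 25.3%. Without control RA 5 the medians were 0.14 for lncRNAs, -0.10 for coding members and -0.07 for pseudogenes. Without control RA 4 and 5 they were 0.08 for lncRNAs, -0.01 for coding members and -0.03 for pseudogenes. The 124 other lncRNA genes with a mean of at least 50 had a median of 0.15, with 6 higher and 4 lower. Control RA 5 had the lowest value for 46 of these (37.1%), so this trait was shared by lncRNAs outside the members.

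In the LA the median was 0.22 over 52 tested lncRNA members, and 0.06 without mutant LA 1 and control LA 4. Control LA 4 was the lowest library for 20 of the 52 (38.5%), against 15% of all genes with an RA mean of at least 50. Among 117 other lncRNA genes of that RA mean it was lowest for 36 (30.8%). Of 17 tested lncRNAs with names of their own, a list taken from general knowledge, the growth-restraining imprinted H19 was lower in both atria (-0.73 in the RA, adjusted p = 0.0129; -1.33 in the LA, adjusted p = 0.0348) and Dnm3os, host of a microRNA cluster, was higher in the RA by 0.72 (adjusted p = 0.0418), all by limma. Malat1 and Neat1, abundant nuclear RNAs, had RA changes of 0.45 and 0.30, neither called.

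**Figure D5:**
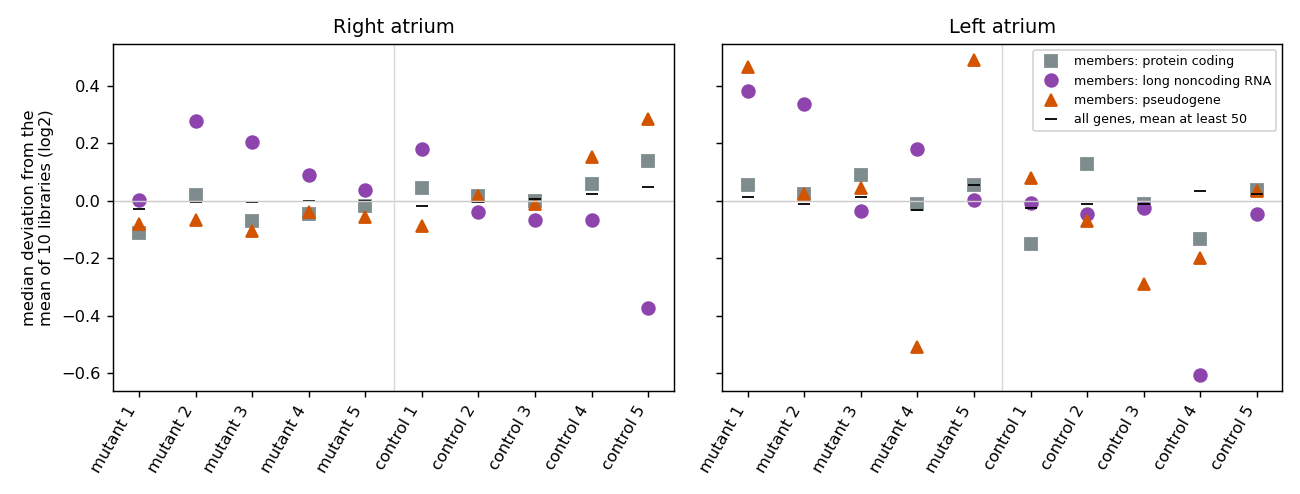
Median deviation (log2) of each library from the mean of the 10 libraries of its atrium, over coding, lncRNA and pseudogene members and over all genes with a right atrium mean of at least 50, with mutant libraries left of control libraries. Control RA 5 and control LA 4 lie lowest for lncRNA members, at -0.37 and -0.61.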

How the data were processed

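RNA of whole left and right atria was sequenced in 20 libraries, with 300 ng of RNA per library. Per the submitters' processing notes, which name STAR, mm10 and DESeq2 without roles, the authors aligned reads and deposited 1 table per atrium, a signal per gene and library: the read count divided by a size factor of the library. Versions and the gene counter are not given in the sources used here. Division by the step of each library gave whole reads for 100% of values within 0.01, and left mutant 3, whose step is close to 1, tests this weakly. The deposited tables with the authors' own comparison (fold changes and p-values) were not used. Of the RA rows, 6275 had no values and 1203 repeated a gene ID.

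Genes with a mean of at least 10 were tested per atrium with limma 3.58.1 on log2(value + 1), with a mean-variance trend, and the difference between atria over 20 libraries. Because the authors scaled each table on its own, no level was set across atria. Alternatives were other pseudocounts, filters, scalings and models, edgeR 4.0.16 and DESeq2 1.42.0 on recovered reads, and leaving out each library. On recovered reads edgeR called 870 genes in the RA and 170 in the LA. Annotation was GENCODE M21, with matches from blastn at 90% identity or more, and fits were tested on simulated data.

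Members, gene lists and the naming rule (called members, the 10 of largest RA mean, the 5 of widest spread within an RA genotype, those at the limit, neighbours and parents) were chosen with earlier results of these data known. Clock genes given beside Ciart were chosen after their values were seen.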

Additional observations from a re-analysis of the deposited data

Results flagged for a closer look

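In 23 named or called members, 92 groups of 5 libraries were checked for a library far from the other 4 of its group, with a gap above 0.71 of the range. Such a library was found in 12 groups (13%). Chance flags about 1 in 20 groups, but some of these genes were chosen for a wide spread between libraries and they share libraries, so the shares are not comparable. Control LA 4 stood apart low for Gm15910 at 58.98 normalized counts and Gm20544 at 23.59, and high for Gm13394 at 92.69. Gm10710 stood apart in 3 groups, high in mutant RA 4 at 80.38 and mutant LA 3 at 43.81 and low in control RA 4 at 35.83. Control RA 2 was high for Gm10800 at 3430 and for Gm10801 at 611.7, and mutant LA 4 was high for Gm10801 at 1996. Gm12295 was highest in mutant RA 2 at 661, still below every control. Gm15564 was highest in mutant LA 1 at 4966, and Gm608 (Usf3) was lowest in control RA 5 at 1086. The part of sequencing, tissue or animal in these libraries was not tested.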

How the results depend on the processing

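Gm14267, Gm11469, Gm13715, Gm12295 and Gm1078 were called in the RA under each of the 24 alternatives, and Gm14267 and Gm13715 in the LA under each that could be fitted. No count or named change reversed, but the RA median over the members, -0.02, was 0.01 without control RA 4 and 5, and the LA median over coding members, -0.03, was 0.00 without mutant LA 1 and control LA 4. Fitting all 4 groups in a single model gave 2 members lower in the RA and 14 higher and 4 lower in the LA, with 267 RA and 1235 LA genes called. It lost the RA calls of Gm1574, Gm13481, Gm14446, Gm13910, Gm15910, Gm20544 and Gm9968, at an adjusted p of 0.106 to 0.581 (limma). DESeq2 gave 13 members higher in the RA, 8 higher and 2 lower in the LA, 1 in the difference between atria and 431 LA genes. In the LA, no member was called lower with a pseudocount of 0.5, without a filter, with TMM or quantile scaling or with edgeR, and with a mean of at least 50 in the LA 0 were higher and 0 lower. Without a filter Gm20544 (0.0585) and Gm9968 (0.0503) were lost in the RA and Gm10710 (0.119) in the LA, and edgeR lost Gm15910 (0.065) and Gm20544 (0.0543) in the RA (adjusted p). The mitochondrial RNA share as covariate lost Gm20544 (adjusted p = 0.0508) and gave 289 LA genes. Membership at a mean of 100 gave 5 higher in the RA and 2 higher in the LA, and at 25 it gave 2 lower in the LA. The last alternatives were chosen after seeing the data. Without control RA 4 and 5, 3 members were higher in the RA. Without mutant LA 1 and control LA 4, 2 were higher and 0 lower in the LA, with 92 genes called.

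Leaving out each library gave 4 to 11 members higher and 4 to 7 lower in the RA, 1 to 7 higher and 0 to 3 lower in the LA, and 600 to 1091 RA and 71 to 370 LA genes. With a replicate block, 11 members were higher and 4 lower in the LA with 693 genes called, and Gm13910 (adjusted p = 0.0541, limma) and Gm20544 (adjusted p = 0.061, limma) were lost in the RA. Libraries of a number did not all deviate together (r from -0.00152 to 0.439 in the RA and 0.0992 to 0.395 in the LA), so the numbers were not taken as pairs. Yet each mutant LA library but mutant LA 3 deviated most like the control LA library of its own number. In the RA this was so for numbers 1, 3 and 5. What the numbers mark is not given. Between atria, r ran from 0.339 to 0.526 over control pairs of a number and from -0.0861 to 0.268 over mutant pairs. With a replicate block by genotype and number, added after seeing the data, the difference between atria still had 0 members called. Members near 50 normalized counts, and LA values of Gm14267 at 0 to 5 reads in controls, limit the precision of their changes.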
